A study of Homo sapiens with 24 samples.

Results

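YAP1, WWTR1, TEAD1, ANKRD1, AMOTL2, AXL, AJUBA and LATS2, a set of factors, regulators and target genes of the YAP-TEAD pathway, were followed in bladder cancer cells depleted of FOXA1, ZBED2 or both. These 8 genes, of 58721 in the count table, were chosen with earlier results of these data known. All 8 passed the filter on low counts in both lines. RNA was measured by 3′ RNA-seq, in which reads start near the poly-A tail. The cells were RT112, a luminal papillary (LumP) bladder cancer line, and SCaBER, a basal/squamous (Ba/Sq) one. Each line received a control siRNA (siControl), 1 of 2 siRNAs against ZBED2 (siZBED2-1 or siZBED2-2), 1 siRNA against FOXA1 (siFOXA1), or siFOXA1 combined with either ZBED2 siRNA (siFOXA1+siZBED2-1 and siFOXA1+siZBED2-2, the double knock-downs). All cells were lipid-transfected, and no untransfected group was analysed here. Each of the 12 groups held 2 libraries, which made 24. The labels do not say whether the 2 libraries of a group came from separate cultures, so p-values measure the spread between these libraries only. Each subtype was represented by a single line, the labels give a single FOXA1 siRNA, and a knock-down lowers a transcript without removing it.

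The Hippo pathway is a kinase cascade. The kinases STK3 and STK4 (MST2 and MST1) activate LATS1 and LATS2, which phosphorylate the co-activators YAP (encoded by YAP1) and TAZ (encoded by WWTR1) and keep them out of the nucleus. When the cascade is off, YAP and TAZ enter the nucleus and bind DNA through TEAD factors such as TEAD1. Their activity is therefore set mainly by phosphorylation and location, which RNA counts do not measure, and it is commonly read from target genes. ANKRD1, an ankyrin repeat protein, is a standard target. AMOTL2, a junction protein of the angiomotin family that binds YAP, and LATS2 itself are targets that also restrain the pathway. AXL encodes a receptor tyrosine kinase known as a YAP target, and AJUBA is a LIM domain protein that binds and restrains LATS kinases.

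TEAD factors bind the letters GGAATG, which read CATTCC on the other strand. This motif was searched on both strands in RefSeq promoter windows of GRCh38.p14, which run from 250 bases before to 50 bases after an annotated start. RefSeq windows matched 7 of the 8 genes, through 11 annotated starts; TEAD1 had no entry. The motif was present in 6 of the 11 windows (54.5%) and in 4928 of 35116 windows of all promoters (14%). ANKRD1 (minus strand) had 2 matches, at -220 and -128 from its start. AMOTL2 (minus strand) and AXL (plus strand) each had 1 match at their second annotated start, at -69 and -212. The first annotated starts of AMOTL2 and AXL had no match. For ANKRD1, AMOTL2 and AXL the 250 bases upstream of the start with a match are shown. These are the 3 genes of the 8 whose change with the FOXA1 siRNA differed between the lines. The 3 stretches lie at chr10:90921088-90921337, chr3:134374448-134374697 and chr19:41226505-41226754. They are written 5′ to 3′ on the strand of the gene, with the motif in capitals.

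ANKRD1: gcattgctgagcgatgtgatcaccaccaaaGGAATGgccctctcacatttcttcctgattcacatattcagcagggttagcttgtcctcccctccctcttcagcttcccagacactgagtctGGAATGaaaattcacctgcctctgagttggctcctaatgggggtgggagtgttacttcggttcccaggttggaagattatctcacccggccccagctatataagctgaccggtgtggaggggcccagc

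AMOTL2: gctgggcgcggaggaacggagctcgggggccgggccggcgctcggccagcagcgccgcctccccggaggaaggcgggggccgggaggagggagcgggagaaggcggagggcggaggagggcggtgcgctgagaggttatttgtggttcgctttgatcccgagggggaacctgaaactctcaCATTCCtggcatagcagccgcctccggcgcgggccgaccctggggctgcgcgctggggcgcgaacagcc

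AXL: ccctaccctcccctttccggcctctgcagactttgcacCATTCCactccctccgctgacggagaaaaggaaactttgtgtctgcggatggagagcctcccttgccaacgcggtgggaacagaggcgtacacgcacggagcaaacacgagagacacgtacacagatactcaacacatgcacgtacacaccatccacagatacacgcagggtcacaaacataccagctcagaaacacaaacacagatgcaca

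YAP1 had 1 match at -162, AJUBA 1 at -59 from its second start, LATS2 1 at 9 bases after its start, and WWTR1 none in either window. Reads from the 3′ end do not tell which start a transcript used, and a match describes the letters only.

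Total counts ran from 4425404 to 5207195 per library in RT112 and from 4519668 to 6119210 in SCaBER. Levels are given as CPM, a gene's count scaled to the size of its library, here with TMM factors over the 24 libraries, and a count of 3, the most that a count of 0 allows, was worth 0.474 to 0.679 CPM. The summed level of 8 luminal markers was 446 to 1203 CPM in RT112 and 30.7 to 52.2 CPM in SCaBER, while 9 basal/squamous markers summed to 451 to 882 CPM and 2895 to 4763 CPM. KRT20 and UPK3A, which mark the most differentiated luminal cells, were at or near 0 in both lines. The other 2 uroplakins listed, UPK2 and UPK1A, reached 201.7 and 101.5 CPM in RT112 but at most 7.2 and 0 CPM in SCaBER. In siControl 7 of the 9 basal/squamous markers were higher in SCaBER. KRT16 and TP63 were lower there, with means of 23.5 and 18.7 CPM against 54.4 and 25.2 CPM in RT112. FOXA1 was 41.9 and 41.4 CPM in RT112 siControl and 6.87 and 9.57 CPM in RT112 siFOXA1. In SCaBER it was only 3.74 and 5.51 CPM in siControl against 0.819 and 1.36 CPM in siFOXA1, so that its fall over 2 libraries did not pass the test (log2 fold change -2.09 ± 1.23, adjusted p = 0.272), whereas that over 6 did (-2.85 ± 0.81, adjusted p = 0.0087). ZBED2 fell from 22.1 and 16.9 CPM to 2.38 and 0 CPM with siZBED2-1 in RT112 and from 18.9 CPM in both SCaBER control libraries to 2.41 and 7.39 CPM. With siZBED2-2 it was 7.34 and 6.3 CPM in RT112 but 8.74 and 15.8 CPM in SCaBER, so SCaBER siZBED2-2 replicate 2 kept most of its target and results that use this library are also given without it. ZBED2 was also low in RT112 siFOXA1, at 5.46 and 1.52 CPM (log2 fold change -2.48 ± 0.84, adjusted p = 0.0325), so ZBED2 siRNAs met a smaller amount of their target there.

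In control cells, 6 of the 8 genes were higher in SCaBER than in RT112, TEAD1 was lower, and LATS2 did not pass the test, where 33.6% of the 14823 genes tested differed between the lines (adjusted p from edgeR's quasi-likelihood test, threshold 0.05, here and below). YAP1 was 224 and 219 CPM in SCaBER and 68.6 and 60.6 CPM in RT112, a 3.43-fold difference (log2 difference 1.78 ± 0.17 SE, adjusted p = 1.37e-10). WWTR1 was 126 and 150.1 CPM against 26.6 and 25.4 CPM (2.41 ± 0.24, adjusted p = 8.53e-10). Both co-activators were higher in the Ba/Sq line in every library: the lowest SCaBER library of the 12 had 215 CPM of YAP1 and the highest RT112 library 91.4 CPM, and for WWTR1 these were 98.3 and 43.9 CPM. TEAD1 went the other way, with 97.7 and 73.7 CPM in SCaBER and 135 and 121 CPM in RT112 (-0.58 ± 0.19, adjusted p = 0.0179), a call that was lost without SCaBER siControl replicate 2 (-0.39, adjusted p = 0.24) or RT112 siControl replicate 1 (-0.50, adjusted p = 0.112).

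Among the target genes, the log2 differences of AXL and ANKRD1 were larger than those of YAP1 and WWTR1, and those of AMOTL2 and LATS2 were smaller. AXL was 283 and 292 CPM in SCaBER and 21.8 and 14.7 CPM in RT112, 15.8-fold higher (log2 difference 3.98 ± 0.30, adjusted p = 1.22e-12). ANKRD1 was 78.6 and 92.4 CPM against 9.39 and 8.65 CPM, 9.47-fold higher (3.24 ± 0.27, adjusted p = 1.1e-11). AMOTL2 was 139 and 154 CPM against 64.4 and 63.9 CPM (1.19 ± 0.17, adjusted p = 6.5e-07). AJUBA, which restrains LATS kinases, was 126 and 134 CPM against 29.1 and 26.5 CPM (2.22 ± 0.21, adjusted p = 1.22e-10). LATS2, at 23.8 and 26 CPM against 15.1 and 16 CPM, had a log2 difference of 0.68 ± 0.29 (adjusted p = 0.07), with both SCaBER libraries above both RT112 ones. The lines differ in origin, culture medium and genome, which cannot be told apart here.

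**Figure D1:**
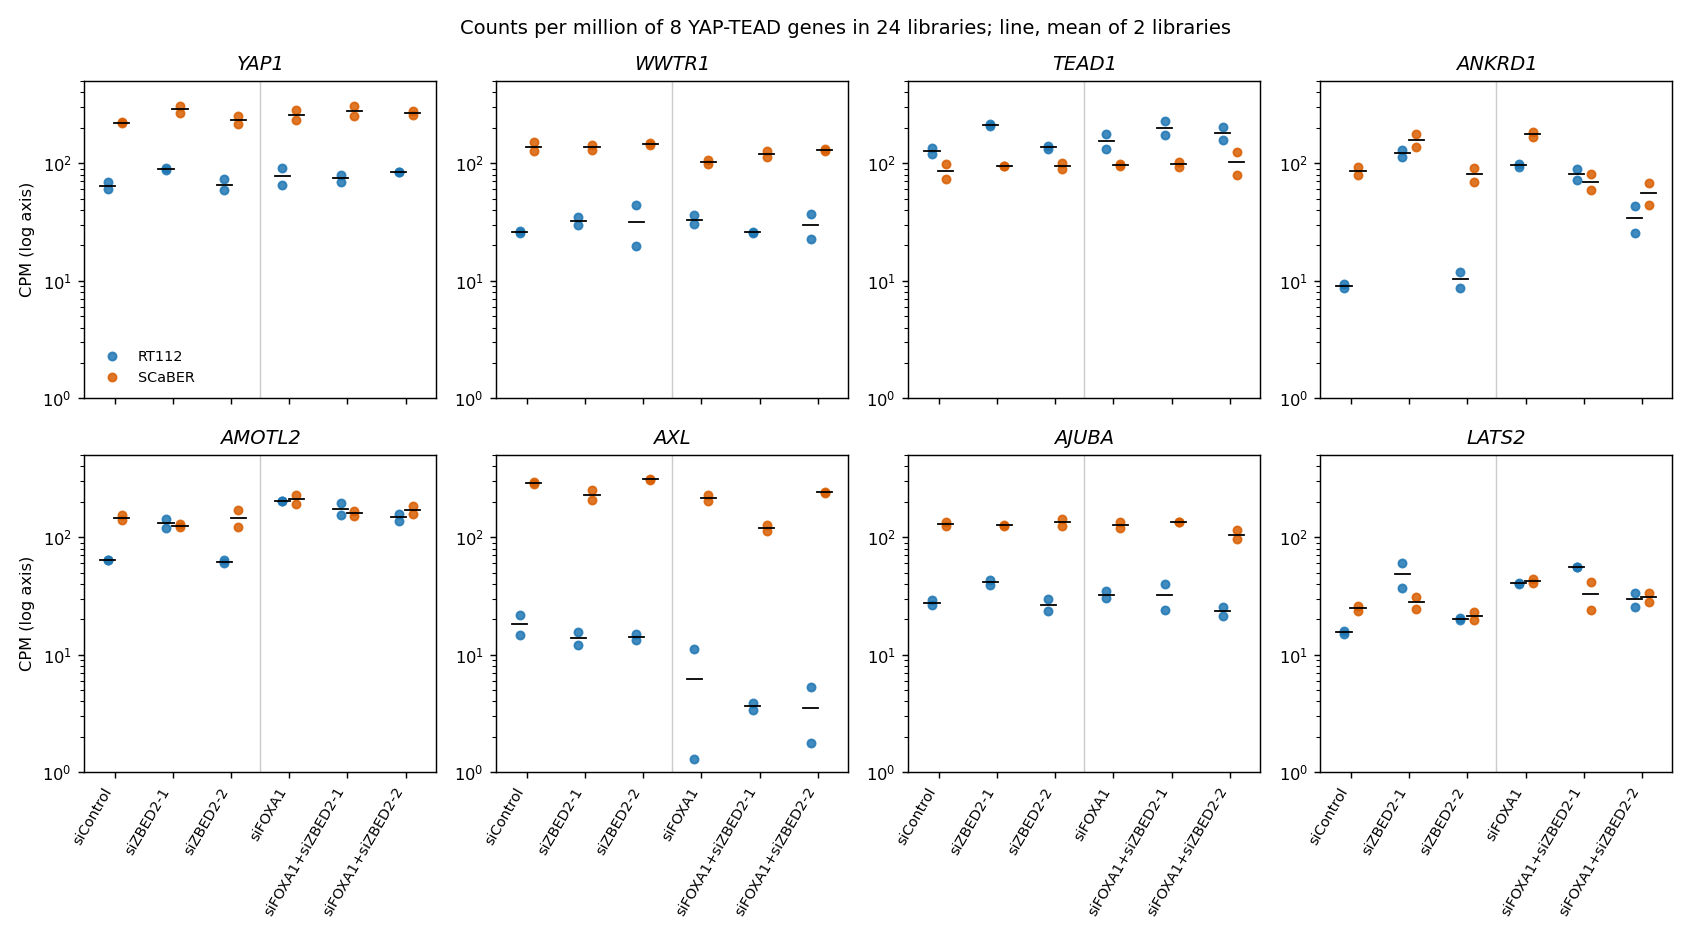
Level of each gene in CPM (log axis) in every library, by siRNA treatment, with RT112 in blue, SCaBER in orange and a black line at the mean of 2 libraries. The lines stay apart for YAP1, WWTR1, AXL and AJUBA in every treatment, whereas ANKRD1, AMOTL2 and LATS2 of RT112 reach the SCaBER range with siFOXA1 or siZBED2-1.

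The siFOXA1 comparison asks how the pathway's transcripts respond to loss of a luminal transcription factor. In RT112 siFOXA1 raised 3 of the 8 genes, ANKRD1, AMOTL2 and LATS2, and lowered none past the threshold, where 23.3% of the 13264 genes tested were called. ANKRD1 went from 9.39 and 8.65 CPM to 98.8 and 92.9 CPM, a 10.5-fold rise (log2 fold change 3.39 ± 0.27 SE, adjusted p = 1.66e-09). AMOTL2 went from 64.4 and 63.9 CPM to 201 and 202 CPM, 3.11-fold (1.64 ± 0.17, adjusted p = 1.28e-07). LATS2 went from 15.1 and 16 CPM to 41 and 39.8 CPM, 2.57-fold (1.36 ± 0.28, adjusted p = 0.000848). In all 3 both siFOXA1 libraries stood above both control libraries, and the pair within a group was close.

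The factors themselves did not pass the test in RT112. YAP1 was 65.7 and 91 CPM with siFOXA1 against 68.6 and 60.6 CPM, a log2 fold change of 0.26 ± 0.20 with a 95% interval from -0.14 to 0.67. WWTR1 was 36 and 30.2 CPM against 26.6 and 25.4 CPM (0.33 ± 0.33, interval -0.34 to 1.01). TEAD1 was 131 and 177 CPM against 135 and 121 CPM, and AJUBA 34.8 and 30.2 CPM against 29.1 and 26.5 CPM. AXL had the opposite sign, at 11.1 and 1.31 CPM against 21.8 and 14.7 CPM (-1.55 ± 0.62, adjusted p = 0.0726). Its siFOXA1 libraries differed 55 to 6 in raw counts, and with the replicate number as a block the adjusted p was 0.0386. Without siFOXA1 replicate 1 the AXL value was -3.80 (adjusted p = 0.000463), and without siFOXA1 replicate 2 it was -0.72.

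Over the 6 RT112 libraries with the FOXA1 siRNA against the 6 without it, 4 of the 8 genes were called, where 33.8% of all genes tested were. AMOTL2 had its lowest, median and highest values at 138, 176 and 202 CPM with the FOXA1 siRNA and at 60.2, 64.2 and 143 CPM without it (1.10 ± 0.10, adjusted p = 2.18e-09). AXL was 1.31, 3.63 and 11.1 CPM against 12.2, 14.9 and 21.8 CPM (-1.82 ± 0.37, adjusted p = 0.000367), and no library of one arm overlapped the other. ANKRD1 was 25.3, 81 and 98.8 CPM against 8.65, 10.6 and 130.2 CPM (1.51 ± 0.15, adjusted p = 1.38e-08), and LATS2 25.6, 40.4 and 55.7 CPM against 15.1, 20.3 and 60.8 CPM (0.69 ± 0.16, adjusted p = 0.00126). For both of these the arms overlapped, because the 2 siZBED2-1 libraries lay among or above those with the FOXA1 siRNA. The arms of AMOTL2 overlapped too, as siZBED2-1 replicate 2 (143 CPM) lay above the lowest library with the FOXA1 siRNA (138 CPM). YAP1 had a log2 fold change of 0.11 ± 0.11 over the 12 libraries. The share of reads from mitochondrial genes was 18.6 to 22.7% in the RT112 libraries with the FOXA1 siRNA and 8.22 to 17.8% in the others, and the summed level of 6 markers of other cell types was 39 to 59.8 CPM against 6.26 to 29.5 CPM. With the FOXA1 siRNA most of that sum was COL1A1. COL1A2 was at 0 in all 12 libraries, and DCN, PDGFRB and PTPRC were at or near 0. PECAM1 went the other way, from 5.68 CPM in siControl replicate 1 to 0 CPM in siFOXA1 replicate 1. Its siControl mean was 3.76 CPM, beside 4.72 CPM for COL1A1. The part of the mitochondrial share or of these markers in these results was not tested.

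In SCaBER siFOXA1 moved 4 of the 8 genes, where 17.8% of the 13129 genes tested were called: ANKRD1 and AMOTL2 rose, and AXL and WWTR1 fell. ANKRD1 went from 78.6 and 92.4 CPM to 169 and 183 CPM, 2.03-fold (1.02 ± 0.19, adjusted p = 0.000166). AMOTL2 went from 139 and 154 CPM to 192 and 228 CPM (0.50 ± 0.15, adjusted p = 0.0207). LATS2 went from 23.8 and 26 CPM to 40.5 and 44.4 CPM and just missed the threshold (0.75 ± 0.27, adjusted p = 0.0502, or 0.0393 with the replicate number as a block and 0.0476 without siZBED2-2 replicate 2). AXL, at 283 and 292 CPM, went to 227 and 202 CPM (-0.44 ± 0.13, adjusted p = 0.016). WWTR1, which encodes TAZ, went from 126 and 150.1 CPM to 98.3 and 106 CPM (-0.45 ± 0.15, adjusted p = 0.0316). YAP1 was 234 and 284 CPM against 224 and 219 CPM (0.21 ± 0.14, interval -0.07 to 0.49), and TEAD1 and AJUBA also did not pass the test. Of the 4 calls only ANKRD1 held whichever library was left out. Between 1 and 5 genes were called over the 12 fits that each left out a library, with 1 left without siFOXA1 replicate 2 and 2 without siControl replicate 1 or 2. AMOTL2 was lost without siControl replicate 1 (0.42) or siFOXA1 replicate 2 (0.36), AXL without either siControl library (-0.47 and -0.41) or siFOXA1 replicate 2 (-0.36), and WWTR1 without siFOXA1 replicate 1 (-0.39), siFOXA1 replicate 2 (-0.51) or siControl replicate 2 (-0.32).

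Over the 6 SCaBER libraries with the FOXA1 siRNA and the 6 without it, 4 of the 8 genes were called, where 24.1% of all genes tested were. AXL was 114, 215 and 243 CPM (lowest, median, highest) against 207, 287 and 313 CPM (-0.58 ± 0.08, adjusted p = 4.44e-07). AMOTL2 was 152, 176 and 228 CPM against 121, 134 and 169 CPM (0.36 ± 0.09, adjusted p = 0.00255). LATS2 was 23.9, 37.1 and 44.4 CPM against 19.7, 24.2 and 31.1 CPM (0.51 ± 0.16, adjusted p = 0.0158). WWTR1 was 98.3, 120 and 132 CPM against 126, 142 and 150.1 CPM (-0.27 ± 0.09, adjusted p = 0.0211). The arms overlapped for all 4 of these genes. Without siZBED2-2 replicate 2, the library that kept most of its ZBED2, the values were -0.59 for AXL, 0.28 for AMOTL2, 0.54 for LATS2 and -0.28 for WWTR1, and all 4 were still called. The LATS2 call was lost without siFOXA1+siZBED2-1 replicate 1 (0.35), siZBED2-1 replicate 2 (0.45) or siFOXA1+siZBED2-2 replicate 2 (0.46), and the WWTR1 call without siZBED2-1 replicate 1 (-0.25), siControl replicate 2 (-0.23) or siFOXA1+siZBED2-1 replicate 2 (-0.25). ANKRD1, which rose with siFOXA1 alone, had a value of -0.22 ± 0.11 over the 6 and 6 libraries (adjusted p = 0.151, or -0.16 without siZBED2-2 replicate 2), since it was low in the double knock-downs described further on. It was called lower without replicate 2 of siFOXA1+siZBED2-1 (-0.31) or of siFOXA1+siZBED2-2 (-0.34). Mitochondrial shares in SCaBER were 9.3 to 12.9% with the FOXA1 siRNA and 9.55 to 12% without it, and the sum of other cell type markers was 8.96 to 14.1 CPM against 3.95 to 8.68 CPM. The part of that sum in these results was not tested.

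The change over the 6 and 6 libraries differed between the lines for 3 of the 8 genes, where 8.11% of the 14823 genes tested did. It was smaller in SCaBER than in RT112 for ANKRD1 (log2 difference of the changes -1.74 ± 0.20, adjusted p = 3.71e-07) and AMOTL2 (-0.74 ± 0.13, adjusted p = 0.000368). AXL was lowered less in SCaBER (1.24 ± 0.28, adjusted p = 0.00377), and without RT112 siFOXA1 replicate 1 this difference was 1.99. The other 5 genes had differences between -0.24 and 0.01. Without SCaBER siZBED2-2 replicate 2 the differences were -1.66 for ANKRD1, -0.81 for AMOTL2 and 1.23 for AXL, all 3 still called. In fold terms the AXL change was thus larger in the line with the lower AXL level, where 4 of the 6 libraries with the FOXA1 siRNA held 6 to 19 reads of it.

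**Figure D2:**
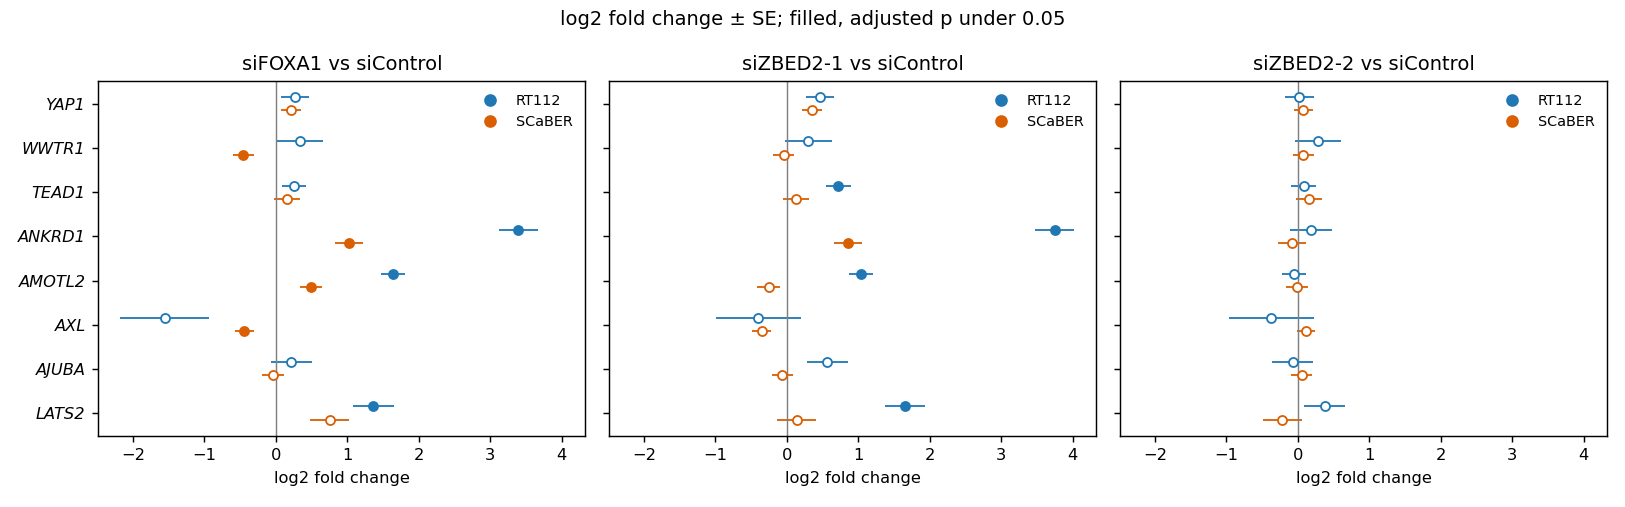
Log2 fold change ± SE of each gene against siControl for siFOXA1, siZBED2-1 and siZBED2-2, with RT112 in blue and SCaBER in orange; filled points had an adjusted p under 0.05. ANKRD1 lies furthest to the right for siFOXA1 and siZBED2-1 in RT112, at 3.39 and 3.75, and no point is filled for siZBED2-2.

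Each ZBED2 siRNA was compared with siControl on its own. In RT112 siZBED2-1 raised 4 of the 8 genes, ANKRD1, AMOTL2, LATS2 and TEAD1, where 8.8% of all genes tested were called. ANKRD1 reached 130.2 and 113 CPM from 9.39 and 8.65 CPM, 13.4-fold (3.75 ± 0.27, adjusted p = 4.07e-09). AMOTL2 reached 120.3 and 143 CPM from 64.4 and 63.9 CPM, 2.05-fold (1.03 ± 0.17, adjusted p = 0.000172). LATS2 reached 60.8 and 37 CPM from 15.1 and 16 CPM, 3.14-fold (1.65 ± 0.28, adjusted p = 0.000307), with its 2 libraries far apart. TEAD1 reached 216 and 206 CPM from 135 and 121 CPM (0.72 ± 0.17, adjusted p = 0.00816), a call that was lost without siZBED2-1 replicate 1 (0.67, adjusted p = 0.0543) or siControl replicate 2 (0.62, adjusted p = 0.11). YAP1, at 91.4 and 87.3 CPM against 68.6 and 60.6 CPM, had a log2 fold change of 0.47 ± 0.20 (adjusted p = 0.159) and AJUBA, at 39.2 and 43.2 CPM against 29.1 and 26.5 CPM, 0.57 ± 0.29 (adjusted p = 0.263). These 2 genes did not pass the test over all genes. Both of their siZBED2-1 libraries were above both control libraries, as were those of WWTR1 (0.30 ± 0.33). The share of all genes placed so was not counted. The sum of other cell type markers was 29.5 and 23.7 CPM with siZBED2-1 and 10.7 and 6.26 CPM with siControl. In siControl COL1A1 had a mean of 4.72 CPM and PECAM1 of 3.76 CPM. The part of this sum in these changes was not tested.

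In SCaBER siZBED2-1 raised ANKRD1 alone of the 8 genes, from 78.6 and 92.4 CPM to 137 and 178 CPM (0.85 ± 0.19, adjusted p = 0.00521), where 4.65% of all genes tested were called. This call was lost without siControl replicate 1 (0.75, adjusted p = 0.0527) or siZBED2-1 replicate 2 (0.66, adjusted p = 0.153). AMOTL2 was 121 and 129 CPM against 139 and 154 CPM, and YAP1 was 269.5 and 305 CPM against 224 and 219 CPM (0.35 ± 0.14, adjusted p = 0.153). The effect of siZBED2-1 differed between the lines for ANKRD1 (-2.87 ± 0.35, adjusted p = 6.87e-06) and AMOTL2 (-1.27 ± 0.23, adjusted p = 0.00275), 2 of the 8 genes, where 0.735% of all genes tested differed. LATS2 had a difference of -1.49 ± 0.40 that did not pass (adjusted p = 0.0744).

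With siZBED2-2 none of the 8 genes passed the test in either line by edgeR, at an adjusted p or at an unadjusted p under 0.05, and the count by DESeq2 was also 0, where 0.166% of all genes tested were called in RT112 and 0.625% in SCaBER. ANKRD1 was 8.69 and 11.9 CPM in RT112 (0.19 ± 0.29, 95% interval -0.42 to 0.80) and 69.2 and 91.5 CPM in SCaBER (-0.08 ± 0.19, interval -0.48 to 0.31). In RT112 1 of its 2 libraries lay above both control libraries, and in SCaBER 1 of its 2 lay below both. The other 7 genes had log2 fold changes between -0.37 and 0.37 in RT112 and between -0.22 and 0.15 in SCaBER. The RT112 siZBED2-2 libraries differed most beyond counting noise of any group (chi-square per gene 23.9, with RT112 siControl next at 11.6). Their mitochondrial shares were 16.4 and 8.22%, and the part of this spread in these values was not tested. Without SCaBER siZBED2-2 replicate 2, the library that kept most of its ZBED2, ANKRD1 was at -0.29, LATS2 at -0.32 and TEAD1 at 0.26, the other 5 genes lay between these last values, and the number of the 8 genes called was again 0.

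The 2 ZBED2 siRNAs therefore gave different values for the same genes, and this difference was tested directly. In RT112 siZBED2-1 was above siZBED2-2 for 4 of the 8 genes, where 7.77% of all genes tested differed: ANKRD1 (3.56 ± 0.27, adjusted p = 7.83e-09), AMOTL2 (1.09 ± 0.17, adjusted p = 0.000118), LATS2 (1.28 ± 0.28, adjusted p = 0.00398) and TEAD1 (0.64 ± 0.17, adjusted p = 0.0215). LATS2 was not called without siZBED2-1 replicate 1 (0.87), and TEAD1 was not called without any 1 of the 4 libraries compared (0.57 to 0.68). In SCaBER 2 of the 8 genes differed, where 4.01% of all genes tested did: ANKRD1 (0.94 ± 0.19, adjusted p = 0.00242) and AXL (-0.46 ± 0.13, adjusted p = 0.0366). Without siZBED2-2 replicate 2 ANKRD1 was at 1.15 and AXL, at -0.48, was no longer called. ANKRD1 was not called without siZBED2-2 replicate 1 (0.76) or siZBED2-1 replicate 2 (0.74), nor AXL without siZBED2-1 replicate 1 (-0.33) or siZBED2-2 replicate 1 (-0.44). The siRNAs also differed in how far they lowered ZBED2 itself, as given above, and the part of that in these differences was not tested.

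Adding a ZBED2 siRNA to siFOXA1 lowered ANKRD1 from its siFOXA1 level in 3 of the 4 cases. In RT112 ANKRD1 was 98.8 and 92.9 CPM with siFOXA1 alone and 43.5 and 25.3 CPM in siFOXA1+siZBED2-2 (-1.48 ± 0.24, adjusted p = 0.00163), where 1.25% of all genes tested were called and ANKRD1 was the only call of the 8. In siFOXA1+siZBED2-1 it was 89.5 and 72.4 CPM (-0.23 ± 0.23, adjusted p = 0.712), and none of the 8 genes was called by edgeR (1 at an unadjusted p under 0.05, 0 by DESeq2), where 2.55% of all genes tested were. In SCaBER it was 169 and 183 CPM with siFOXA1 alone, 58.9 and 80.5 CPM in siFOXA1+siZBED2-1 (-1.34 ± 0.20, adjusted p = 4.17e-05) and 44 and 68.1 CPM in siFOXA1+siZBED2-2 (-1.63 ± 0.20, adjusted p = 4.49e-06). Every SCaBER double knock-down library was thus below both siFOXA1 libraries, and 3 of the 4 were below the lower siControl library of 78.6 CPM. All genes tested were called at 2.73% and 3.66% in these comparisons. AXL, at 227 and 202 CPM with siFOXA1, was 128 and 114 CPM in SCaBER siFOXA1+siZBED2-1 (-0.83 ± 0.13, adjusted p = 0.00016) and 238 and 243 CPM in siFOXA1+siZBED2-2.

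When both double knock-downs were averaged and set against siFOXA1, ANKRD1 was the only call of the 8 genes in each line. It was -0.86 ± 0.20 in RT112 (adjusted p = 0.0227), where 1.96% of all genes tested were called, and -1.49 ± 0.16 in SCaBER (adjusted p = 3.06e-07), where 3.84% were. The RT112 call was lost without siFOXA1 replicate 1 (-0.81) or replicate 2 (-0.91), siFOXA1+siZBED2-1 replicate 2 (-0.78) or siFOXA1+siZBED2-2 replicate 2 (-0.69). The other 7 genes had values of -0.79 to 0.31 in RT112 and, in SCaBER, of -0.41 to 0.29.

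The interaction asks whether the change with a ZBED2 siRNA was the same with and without siFOXA1. For ANKRD1 it was not. With the mean of both ZBED2 siRNAs its change was lower by 2.82 on the log2 scale with siFOXA1 in RT112 (interaction -2.82 ± 0.32, adjusted p = 4.25e-05) and by 1.87 in SCaBER (-1.87 ± 0.24, adjusted p = 1.24e-05; -1.78 without siZBED2-2 replicate 2). It was the only 1 of the 8 genes called in either line, where 0.611% and 2.29% of all genes tested were. With siZBED2-1 alone, the RT112 interaction of ANKRD1 was -3.98 ± 0.36 (adjusted p = 3.44e-07) and its SCaBER interaction -2.19 ± 0.27 (adjusted p = 7.09e-06), and AMOTL2 was also called in RT112 (-1.23 ± 0.23, adjusted p = 0.00697), where 1.14% and 1.48% of all genes tested were called. In RT112 siFOXA1 and siZBED2-1 each raised ANKRD1 over 10-fold, and together they left it at 89.5 and 72.4 CPM, no higher than either alone. AMOTL2 with the mean of both ZBED2 siRNAs had an RT112 interaction of -0.81 ± 0.20 (adjusted p = 0.0651, or 0.0245 with the replicate number as a block). LATS2 had -1.0 ± 0.34 (adjusted p = 0.204), and with siZBED2-1 alone -1.18 ± 0.39 (adjusted p = 0.142), or -0.78 without siZBED2-1 replicate 1. As ZBED2 was already low in RT112 siFOXA1, a smaller change with siZBED2-1 there cannot be told apart from a smaller amount of target. With siZBED2-2 the RT112 change of ANKRD1 was larger with siFOXA1, at -1.48 ± 0.24, than alone, at 0.19 ± 0.29. The interaction with siZBED2-2 on its own was not tested.

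**Figure D3:**
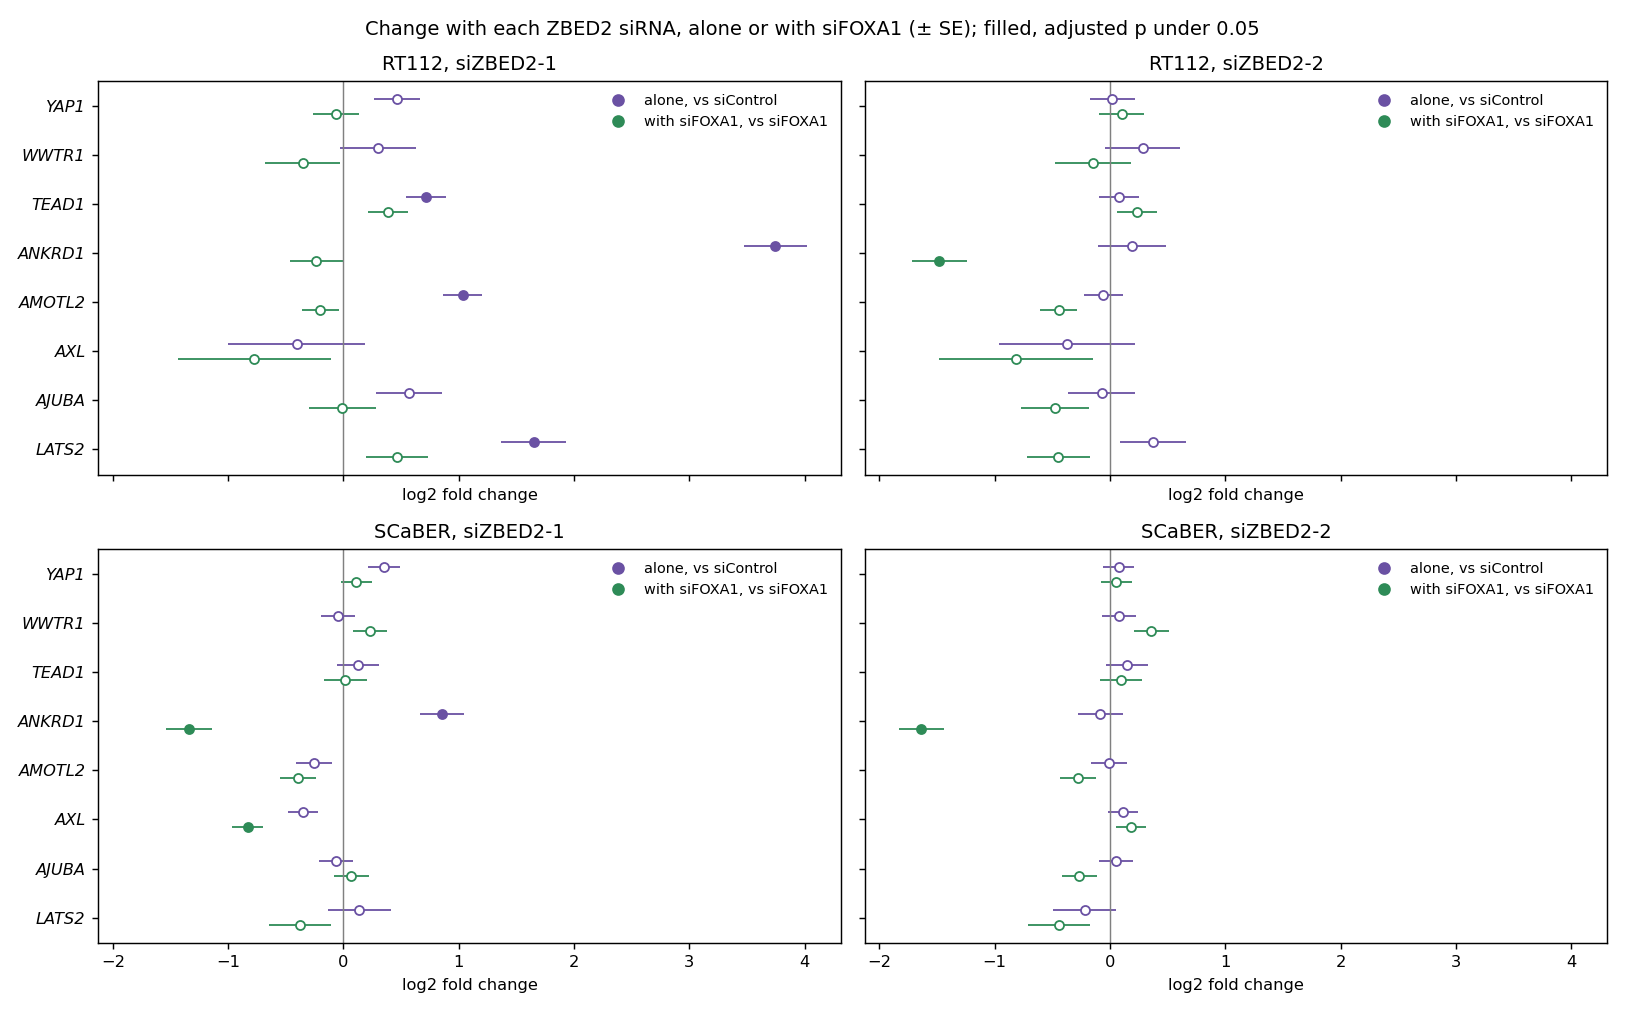
Log2 fold change ± SE of each gene with siZBED2-1 or siZBED2-2, alone against siControl (purple) and with siFOXA1 against siFOXA1 (green), in RT112 and SCaBER; filled points had an adjusted p under 0.05. The purple and green points of ANKRD1 are far apart for siZBED2-1, at 3.75 and -0.23 in RT112 and at 0.85 and -1.34 in SCaBER, while the value of YAP1 furthest from 0 is 0.47.

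Over all treatments, the genes differed in how far their levels ranged within a line. In RT112 AXL ranged 16.7-fold between its lowest and highest library and ANKRD1 15-fold, LATS2 4.04-fold and AMOTL2 3.36-fold, while YAP1 ranged 1.55-fold, TEAD1 1.89-fold, AJUBA 2.02-fold and WWTR1 2.23-fold. In SCaBER ANKRD1 ranged 4.16-fold, AXL 2.75-fold, LATS2 2.25-fold and AMOTL2 1.89-fold, and the other 4 genes 1.43- to 1.69-fold. By lowest and highest library, the target genes thus spanned a wider range than the co-activators in both lines. Single libraries set these ranges. The lowest RT112 library for AXL, siFOXA1 replicate 2, held 6 reads of it. For WWTR1 the lowest and highest RT112 libraries were the replicates of siZBED2-2, so its range there is spread within a group. In RT112 the ANKRD1 group means rose in the order siControl (9.02 CPM), siZBED2-2 (10.3), siFOXA1+siZBED2-2 (34.4), siFOXA1+siZBED2-1 (81), siFOXA1 (95.9) and siZBED2-1 (121.5), of which siControl and siZBED2-2 overlapped and siFOXA1+siZBED2-1 and siFOXA1 did not differ by the test. In SCaBER the order was siFOXA1+siZBED2-2 (56.05), siFOXA1+siZBED2-1 (69.7), siZBED2-2 (80.4), siControl (85.5), siZBED2-1 (157) and siFOXA1 (176), in which each neighbouring pair overlapped except siControl and siZBED2-1.

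As a description over the 12 RT112 libraries, which share their controls, log2 CPM of ANKRD1 correlated with that of LATS2 at r = 0.91 and of AMOTL2 at 0.87, and AMOTL2 with LATS2 at 0.82. The highest value of any pair in SCaBER was 0.63, for AMOTL2 and LATS2, and the median over the 28 pairs was 0.37 in RT112 and 0.00 in SCaBER. The genes of the whole table whose log2 CPM followed a member most closely over the 24 libraries, after the mean of each line was subtracted, were ARL6IP5 (r = 0.91) and NFKBIA (0.91) for ANKRD1, TIMP2 (0.93) and FBXO32 (0.91) for AMOTL2, OPTN (0.91) and CLIC5 (0.89) for LATS2, and CDKN3 (0.86) and HMGN3 (0.84) for AXL. For the members that moved less they were LMAN1 (0.75) and PSMF1 (0.75) for YAP1, PHTF2 (0.79) and RFFL (0.77) for WWTR1, SEC22B (0.79) and SLCO3A1 (0.78) for TEAD1, and ACTR10 (0.80) and ARL1 (0.78) for AJUBA. These are the highest of 14822 genes compared per member, so high values are selected for. Within the lines several of these values were unequal: for SEC22B and TEAD1 r was 0.92 over the 12 RT112 libraries and 0.27 over the 12 SCaBER libraries, for SLCO3A1 and TEAD1 0.87 and 0.41, for RFFL and WWTR1 0.88 and 0.48, and for CLIC5 and LATS2 0.97 and 0.50. For ARL6IP5 and NFKBIA with ANKRD1 r was 0.97 and 0.96 in RT112 but 0.67 and 0.59 in SCaBER.

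Among 18 other YAP/TAZ target genes, siFOXA1 in RT112 called 9 of the 16 that passed the filter, 7 higher and 2 lower, where 23.3% of all genes tested were called, with a median log2 fold change of 0.88 against -0.01 over all genes. CYR61, a matricellular protein and standard YAP target, went from 6.55 and 12 CPM to 38.8 and 70.5 CPM (2.53 ± 0.34, adjusted p = 5.12e-06). PTPN14, a phosphatase that binds YAP (1.09 ± 0.19, adjusted p = 0.000149), and MYOF, a membrane repair protein (0.93 ± 0.17, adjusted p = 0.000257), also rose. IGFBP3, which binds insulin-like growth factors (-1.43 ± 0.16, adjusted p = 4.99e-07), and F3, tissue factor (-1.39 ± 0.23, adjusted p = 5.68e-05), fell. CTGF, another standard target, had at most 16 reads in any RT112 library. In SCaBER 7 of 18 were called, 5 higher and 2 lower, where 17.8% of all genes tested were called, with a median of 0.23 against -0.02. CYR61 (1.12 ± 0.15, adjusted p = 1.37e-06), CCDC80, an extracellular matrix protein (0.64 ± 0.14, adjusted p = 0.00082), and NUAK2, a kinase (1.31 ± 0.30, adjusted p = 0.00189), rose, and IGFBP3 (-2.58 ± 0.20, adjusted p = 8.02e-12) and F3 (-0.61 ± 0.14, adjusted p = 0.00126) fell. IGFBP3 and F3 were therefore lower in both lines while CYR61 was higher in both.

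**Figure D4:**
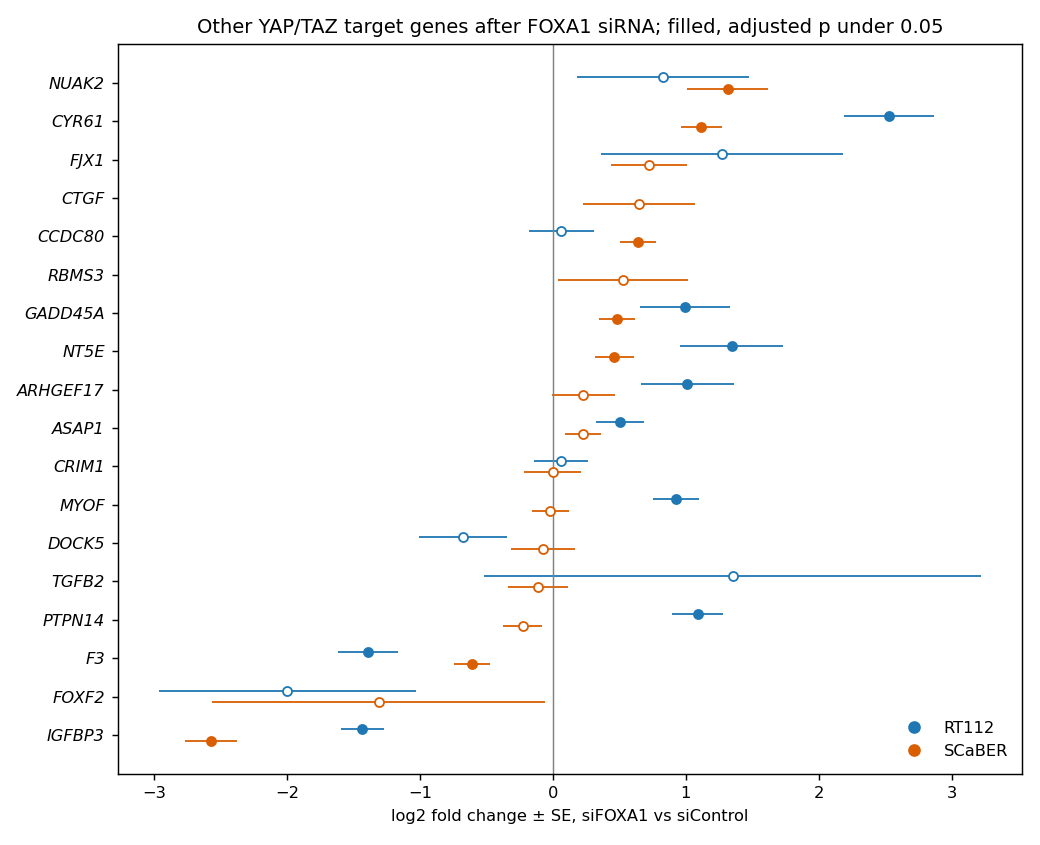
Log2 fold change ± SE with siFOXA1 against siControl of the other YAP/TAZ target genes that passed the filter, with RT112 in blue and SCaBER in orange, sorted by the SCaBER value; filled points had an adjusted p under 0.05. CYR61 (2.53 and 1.12) and IGFBP3 (-1.43 and -2.58) are filled in both lines, on opposite sides of 0.

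Of the 6 genes of the Hippo kinase core, 2 rose with siFOXA1 in each line and none fell, where 23.3% of all genes tested were called in either direction in RT112 and 17.8% in SCaBER. The counts of this list and of the following 2 are small and are given as a description. The 2 that rose were STK4 (0.96 ± 0.15, adjusted p = 2.83e-05 in RT112; 0.61 ± 0.16, adjusted p = 0.00717 in SCaBER) and STK3 (1.39 ± 0.23, adjusted p = 8.68e-05; 0.87 ± 0.18, adjusted p = 0.000557). Over the 6 and 6 libraries some of the 6 genes were also called lower. In RT112 2 were higher and 1 lower, where 33.8% of all genes tested were called. In SCaBER 2 were higher and 2 lower, where 24.1% were called. Of the 9 upstream regulators and scaffolds tested, 5 were called in RT112, with TAOK1 (0.78 ± 0.15, adjusted p = 0.00041), NF2 (0.79 ± 0.19, adjusted p = 0.003) and WWC1 (0.64 ± 0.18, adjusted p = 0.00974) higher and MAP4K4 (-0.87 ± 0.19, adjusted p = 0.00131) and WTIP (-2.92 ± 0.85, adjusted p = 0.0134) lower. In SCaBER 3 of 9 were called, NF2 (0.59 ± 0.16, adjusted p = 0.00578) and FRMD6 (0.52 ± 0.17, adjusted p = 0.0296) higher and MAP4K4 (-0.41 ± 0.11, adjusted p = 0.00708) lower. NF2, the merlin tumour suppressor, and MAP4K4, a kinase upstream of LATS, moved in the same direction in both lines. Of the TEAD paralogs and VGLL cofactors, 5 were tested in each line, with VGLL1 among them in RT112 only and TEAD2 in SCaBER only, since each was too low in the other line to pass the filter. VGLL1, a TEAD-binding cofactor, rose in RT112 (0.67 ± 0.18, adjusted p = 0.00694) and none was called in SCaBER by edgeR (2 at an unadjusted p under 0.05) or by DESeq2. Over the 6 and 6 RT112 libraries 3 of the 5 tested were called, 1 higher and 2 lower, where 33.8% of all genes tested were.

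With siZBED2-1, 5 of the 16 YAP/TAZ targets tested were called in RT112, all higher, where 8.8% of all genes tested were called, with a median of 0.71 against 0.00 over all genes. In SCaBER 3 of 18 were called, 1 higher and 2 lower, where 4.65% of all genes tested were, with a median of -0.10. STK3 of the kinase core was the only gene of its list called with siZBED2-1 in each line (1.58 in RT112 and 0.75 in SCaBER). With siZBED2-2 none of the 36 genes of these 4 lists tested in RT112 was called by edgeR (6 at an unadjusted p under 0.05) or by DESeq2, where 0.166% of all genes tested were called, and in SCaBER the only call was IGFBP3, which was lower (-0.74, adjusted p = 0.0384). Without siZBED2-2 replicate 2 IGFBP3 was at -0.83 and was no longer called (adjusted p = 0.0723).

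Between the lines under siControl, 16 of the 18 targets were called, 15 of them higher in SCaBER, where 33.6% of all genes tested were called, with a median of 1.84 against 0.00 over all genes. GADD45A, a stress response protein (3.64 ± 0.21, adjusted p = 9.99e-16), F3 (2.97 ± 0.18, adjusted p = 2.35e-15) and CYR61 (4.33 ± 0.27, adjusted p = 6.2e-15) had the smallest p, and IGFBP3 was the gene that was lower (-2.38 ± 0.18, adjusted p = 1.41e-12). Of the 6 TEAD paralogs and cofactors tested, 5 were called, 4 of them lower in SCaBER and 1 higher. VGLL4 was among those that were lower (-0.56 ± 0.19, adjusted p = 0.0237). VGLL1 was 76.6 CPM or more in every RT112 library and at most 1.9 CPM in any SCaBER library, VGLL3 (-3.12 ± 0.38, adjusted p = 4.64e-08) and TEAD3 (-1.26 ± 0.26, adjusted p = 0.000217) were also lower in SCaBER, and TEAD2 was 18.4 CPM or more in every SCaBER library and at most 1.35 CPM in RT112. In the kinase core SAV1 (1.08 ± 0.28, adjusted p = 0.00242), STK3 (0.81 ± 0.22, adjusted p = 0.00343) and MOB1B (2.13 ± 0.83, adjusted p = 0.0452) were higher in SCaBER and MOB1A (-0.92 ± 0.23, adjusted p = 0.00194) and STK4 (-0.40 ± 0.15, adjusted p = 0.0426) lower. Of the upstream regulators, MAP4K4 (2.48 ± 0.14, adjusted p = 5.03e-16), AMOTL1 (2.91 ± 0.20, adjusted p = 1.38e-13) and FRMD6 (1.71 ± 0.23, adjusted p = 2.79e-07) led 5 that were higher, and WTIP (-3.16 ± 1.24, adjusted p = 0.048) was lower.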

How the data were processed

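RT112 and SCaBER cells were profiled by 3′ mRNA sequencing (QuantSeq FWD) in 24 libraries, grouped by cell line and siRNA as the labels give them. The authors deposited raw counts (whole reads per gene), made per their pipeline settings with TrimGalore 0.6.2, STAR 2.6.1a, build hg38 and GENCODE 29; the methods text names hg19, and the deposited settings were followed. The authors also deposited TPM values, which divide by gene length. As 3′ reads do not grow with length, TPM served for 1 alternative only. No molecular identifiers were stated, so floors and intervals on counts cover counting error only, and since unique alignments were counted, genes with near-identical copies can lose reads.

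Counts were tested with edgeR 4.0.16 in R 4.3.3 (TMM, filterByExpr with minimum count 10 and minimum total 15, quasi-likelihood F-test), with all 12 libraries of a line in a fit of 6 group means and all 24 in a fit across lines. Adjusted p is Benjamini-Hochberg over all genes tested (13264 in RT112, 13129 in SCaBER, 14823 across lines) and the threshold was 0.05. The standard error was taken from the fold change and its F statistic, and intervals from the t distribution with the fit's degrees of freedom. Groups had 2 libraries, so the spread was shared over groups; the common dispersion of the RT112 fit gave a biological coefficient of variation of 25.8% and that of the SCaBER fit 21.6%. Direct comparisons of the ZBED2 siRNAs, of each double knock-down with siFOXA1, the interaction with siZBED2-1 and the difference between lines for siZBED2-1 were added after seeing the data. Scripts were tested on simulated data. Libraries of a group differed by more than counting noise (chi-square per gene 6.24 to 23.9). The labels name the replicate number an experiment batch and so pair the libraries; over 15 pairs of groups per line the deviations of equal numbers correlated at a mean of 0.03 in both lines, with 0 pairs over 0.1. A fit with this number as a block, DESeq2 1.42.0, RLE factors, library size alone, no filter, limma 3.58.1 on log2(TPM + 1) and leaving out each library were the alternatives.

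The 8 genes, the pathway and marker lists and the comparisons were chosen with earlier results of these data known. The genes named are the 8 members, FOXA1 and ZBED2, up to 3 called genes per pathway list and direction with the smallest p (with siFOXA1 in each line, and between lines under siControl), and the 2 genes most alike to each member; CTGF, CCDC80, TEAD2 and other list genes outside this rule were chosen after their values were seen. Promoter windows and coordinates came from RefSeq tables on GRCh38.p14.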

Additional observations from a re-analysis of the deposited data

Results flagged for a closer look

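The following results were set apart because a test of the difference between groups in the size or direction of an effect passed the threshold. A further 2 genes are listed by position alone: both treated libraries lay on opposite sides of both control libraries in the 2 lines. How many of all genes lay so was not counted, so these 2 are a description only.

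ANKRD1 had the most of them. Its change with a ZBED2 siRNA depended on siFOXA1 in both lines, with interactions of -2.82 (RT112) and -1.87 (SCaBER) on the log2 scale for the mean of both ZBED2 siRNAs, and of -3.98 and -2.19 for siZBED2-1. Its changes also differed between the lines, by -1.74 for the FOXA1 siRNA over 6 and 6 libraries and by -2.87 for siZBED2-1. ZBED2 itself was already low in RT112 siFOXA1 but not in SCaBER siFOXA1 (20.5 and 19 CPM), and its part in the interactions was not tested.

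AMOTL2 differed between the lines by -0.74 for the FOXA1 siRNA and by -1.27 for siZBED2-1, where both SCaBER libraries were below siControl and both RT112 libraries above it, and had an interaction of -1.23 for siZBED2-1 in RT112. AXL differed between the lines by 1.24 for the FOXA1 siRNA.

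WWTR1 was above both control libraries in both RT112 siFOXA1 libraries (0.33) and below them in SCaBER (-0.45). LATS2 was above both control libraries with siZBED2-2 in RT112 (0.37) and below them in SCaBER (-0.22, or -0.32 without SCaBER siZBED2-2 replicate 2, the library that kept most of its ZBED2). These last 2 differences between lines were not tested for these contrasts, and 3 of the 4 values did not pass the test within their line. Over the 6 and 6 libraries WWTR1 was at -0.03 in RT112 and -0.27 in SCaBER. That line difference was tested and did not pass (-0.24 ± 0.19, adjusted p = 0.554).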

How the results depend on the processing

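Of 49 called values of the 8 genes, none changed sign over 1026 refits, and 25 kept their call in all of them. Calls were lost for 21 values with limma on log2(TPM + 1), for 1 with library size alone (AMOTL2, siFOXA1 in SCaBER, 0.42), for 13 without some library, and for 0 with DESeq2, RLE factors, no filter or the replicate block. Of 135 values not called, 57 changed sign in at least 1 refit; among those given above, YAP1 in RT112 was -0.0545 (siFOXA1) and -0.16 (6 against 6 libraries) with TPM, and ANKRD1 with siZBED2-2 had values between -0.0598 and 0.39 in RT112, and between -0.29 and 0.11 in SCaBER, when a library was left out.

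With TPM the number of the 8 genes called was 0 for the mean of both double knock-downs in RT112, siFOXA1+siZBED2-2 in RT112, siZBED2-1 in SCaBER, both SCaBER interactions and the SCaBER siRNA comparison, 1 for the RT112 siRNA comparison, the RT112 interaction with siZBED2-1, siFOXA1+siZBED2-1 in SCaBER and the line difference for siZBED2-1, and 2 for the SCaBER 6 against 6 libraries. In the RT112 interaction it was 2 with the replicate block, DESeq2 or no filter (AMOTL2 added), and in the mean of both SCaBER double knock-downs 2 with DESeq2. The replicate block made 3 uncalled values pass, given above, and changed no other call of the 8 genes. Leaving out each library gave 1 to 5 genes (SCaBER siFOXA1), 0 to 1 (SCaBER siZBED2-1; RT112 mean of both double knock-downs), 1 to 2 (RT112 interaction), 2 to 4 (RT112 siRNA comparison) and 0 to 2 (SCaBER siRNA comparison). The causes of these changes were not tested, except that leaving out a library leaves a group with 1, assumed to vary like the others.

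The number of all genes called moved by over 1.5 times in these cases with a change of tool, design or filter, each given as main, replicate block, DESeq2, no filter and TPM. It was 22, 44, 66, 58 and 3 for siZBED2-2 in RT112, 260, 444, 396, 430 and 3 for the mean of both RT112 double knock-downs, 81, 212, 248, 224 and 4 for the RT112 interaction, 151, 360, 345, 361 and 2 for that with siZBED2-1, 338, 552, 484, 500 and 10 for siFOXA1+siZBED2-1 in RT112, and 166, 336, 331, 324 and 3 for siFOXA1+siZBED2-2 in RT112. In SCaBER it was 82, 125, 108, 115 and 3 for siZBED2-2, 300, 508, 432, 401 and 31 for the interaction, and 194, 348, 298, 274 and 16 for that with siZBED2-1. For the line differences it was 1202, 1354, 1877, 1294 and 1213 (FOXA1 siRNA) and 109, 151, 373, 215 and 34 (siZBED2-1). With TPM alone it fell from 1167 to 345 and from 610 to 236 for siZBED2-1 in RT112 and SCaBER, from 1031 to 348 and from 527 to 178 for the siRNA comparisons, from 504 to 214 for the mean of both SCaBER double knock-downs, and from 359 to 104 and from 480 to 204 for siFOXA1+siZBED2-1 and siFOXA1+siZBED2-2 in SCaBER.

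Leaving out a library also moved the number of all genes called by over 1.5 times, and with it the shares of all genes given above. In RT112 it went from 3084 to 1869 without siControl replicate 2 and 1885 without siFOXA1 replicate 2 for siFOXA1, and for siZBED2-1 from 1167 to 752 or 589 without siControl replicate 1 or 2 and 741 or 606 without siZBED2-1 replicate 1 or 2. For the RT112 siRNA comparison it went from 1031 to between 487 and 667 without any 1 of the 4 libraries compared. Without siFOXA1 replicate 2 it was 30 for the mean of both RT112 double knock-downs, 162 for siFOXA1+siZBED2-1, 25 for siFOXA1+siZBED2-2, 13 for the interaction and 54 for that with siZBED2-1, whereas without siFOXA1 replicate 1 the last 3 were 439, 330 and 403. In SCaBER it went from 610 to 352 or 302 without siZBED2-1 replicate 1 or 2 and 312 without siControl replicate 2 for siZBED2-1, and from 527 to between 233 and 303 without any 1 of the 4 libraries of the siRNA comparison. Without SCaBER siFOXA1 replicate 2 it was 211 for the mean of both double knock-downs, 201 for siFOXA1+siZBED2-1 and 217 for siFOXA1+siZBED2-2. For siZBED2-2 the lowest were 14 in RT112 (without siControl replicate 2) and 34 in SCaBER (without siZBED2-2 replicate 1), and for the line difference with siZBED2-1 64.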
